A study of Mus musculus with 40 samples.

Results

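The immunity-related GTPases (IRG) were followed as 7 genes, Irgm1, Irgm2, Igtp, Iigp1, Tgtp1, Tgtp2 and Ifi47, taken by symbol from the 54087 rows of a count table of CT26 tumors. CT26 is a mouse colon carcinoma line, and 1000000 of its cells were grown under the skin of young adult BALB/c mice. The 40 mice fell into 8 groups of 5, all of which received monoclonal antibodies (mAbs) on days 6, 9 and 12, with tumors taken on day 13. Control mice were given an isotype control (motavizumab, mIgG2a). Single mAbs were anti-PD-1 in a format that does not engage Fc receptors (FcS), anti-TGF-β (clone 1D11), and anti-GARP:TGF-β1 (clone 58A2) as an Fc-active mIgG2a (WT) or as an Fc-dead form (FcD). The other 3 groups received anti-PD-1 plus 1 partner mAb, and are called here the WT combination (partner: anti-GARP:TGF-β1 WT), the FcD combination (partner: anti-GARP:TGF-β1 FcD) and the TGF-β combination (partner: anti-TGF-β). RNA came from whole tumor fragments, so that fewer cells of a type and less RNA per cell cannot be told apart in any value below.

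IRG proteins are GTP-binding enzymes that interferon-γ induces strongly in mouse cells through transcription factors that include IRF1. They are best known from infection: effector IRG proteins coat the vacuole around an intracellular parasite or bacterium and break it open. Irgm1, Irgm2 and Igtp encode the regulatory proteins, which sit on cellular membranes and keep the effectors inactive there. Iigp1, Tgtp1, Tgtp2 and Ifi47 encode effectors. In uninfected tissue their transcripts are mostly known as a readout of interferon acting on the cells present.

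The start regions of the family share short sequences that the choice of genes did not use, and these are shown because the members' levels moved together across mice. Among the 250 bases before the RefSeq start (GRCm38.p6), the core of an interferon-stimulated response element (ISRE: GAAA, any 2 bases, GAAA, on either strand) was present in 5 of the 6 members with an entry. A gamma-activated site (GAS: TTC, any 3 bases, GAA, which reads the same on both strands) was present in 4 of them. Of all 32851 windows of this length, 2.98% held the ISRE core and 7.02% the GAS. The 60-base stretches below run 5′ to 3′ on the strand of the gene, with matches to either motif in capitals, and are aligned on the first base of the ISRE core.
Irgm2 (chr11:58214877-58214936, plus strand): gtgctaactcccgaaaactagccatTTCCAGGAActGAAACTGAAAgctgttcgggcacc
Igtp (chr11:58199486-58199545, plus strand): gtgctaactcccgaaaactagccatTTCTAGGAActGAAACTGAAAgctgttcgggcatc
Tgtp1 (chr11:48992300-48992359, minus strand): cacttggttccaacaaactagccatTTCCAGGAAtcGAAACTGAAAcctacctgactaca
Tgtp2 (chr11:49064259-49064318, minus strand): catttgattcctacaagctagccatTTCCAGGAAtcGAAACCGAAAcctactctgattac
Irgm1 (chr11:48871427-48871486, minus strand): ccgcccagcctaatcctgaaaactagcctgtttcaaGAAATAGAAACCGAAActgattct

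In Irgm2, Igtp, Tgtp1 and Tgtp2 the GAS ended 2 bases before the ISRE core. That exact spacing, which was looked for only after it had been seen here, occurred in 5 of all 32851 windows, and these belonged to the same 4 genes and to Gm12185, a neighboring IRG-like gene. The Irgm2 and Igtp stretches were identical at 58 of 60 bases and the Tgtp1 and Tgtp2 stretches at 47 of 60, while Irgm1 was identical to each of the others at 19 to 24 of 60. Irgm1 held 2 overlapping ISRE cores and no GAS in the window. The Ifi47 window held neither motif. An entry was present for 5 guanylate-binding protein genes, and all 5 held the ISRE core, but in only 2 of them, Gbp5 and Gbp7, was there a GAS as well. The Irgm1 stretch lies in an exon of a noncoding Irgm1 transcript in the GENCODE annotation, and the other 4 stretches overlap no annotated exon. These matches describe letters in a window and were not tested for use in the tumors.

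The libraries held 11931730 to 20680548 counted reads (median 14030511), of which a filter on low counts kept 14760 genes for testing. Libraries are numbered 41 to 80. All 20 libraries numbered 41 to 60 carried more counts of Y-chromosome genes than of Xist, and none of the 20 numbered 61 to 80 did, with 2 or 3 mice of each group in each part. Differences were tested with edgeR's quasi-likelihood test over the 14760 genes in a model of all 40 mice, and a gene was called at a Benjamini-Hochberg adjusted p under 0.05. Levels are CPM, the count per 1000000 counted reads after TMM scaling of the library sizes, and n is 5 mice for each group.

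Of the 7 members, 6 passed the filter, and Ifi47 did not. Per kilobase of annotated exon, the mean level over the 40 mice was highest for Igtp (142 CPM per kilobase), followed by Iigp1 (64.8), Irgm2 (48.3), Irgm1 (18.1), Tgtp1 (18.04), Tgtp2 (1.52) and Ifi47 (0.052). Because Tgtp1 and Tgtp2 share most of their sequence, as given below, their places in this order are uncertain. Mice differed widely. The highest tumor exceeded the lowest by 6.39-fold for Irgm1 and 14.2-fold for Tgtp2, with the other 4 tested members in between. For all 6 tested members the lowest tumor was library 47, an anti-PD-1 mouse, and the next lowest was library 75, an anti-GARP:TGF-β1 FcD mouse.

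Igtp, a regulator on endoplasmic reticulum and vacuole membranes, lies at chr11:58199556-58207591 on the plus strand. Its level in the isotype control was 309.6, 269, 249.9, 158 and 133 CPM. Tumors of the TGF-β combination had 414, 479, 352, 317 and 533 CPM, so that the lowest of them stood above the highest isotype control. With the WT combination the values were 429.6, 369.5, 402, 332 and 255 CPM, and with the FcD combination 343, 391, 409.8, 259 and 361 CPM. In both of these groups 4 of 5 mice exceeded the highest isotype control. The log2 fold change against the isotype control was 0.90 ± 0.36 (SE) with the TGF-β combination (unadjusted p = 0.017, adjusted p = 0.181), 0.68 ± 0.36 with the WT combination (adjusted p = 0.273) and 0.66 ± 0.36 with the FcD combination (adjusted p = 0.343). None was called.

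Irgm1, a regulator of Golgi and lysosome membranes that is also needed for autophagy and mitochondrial upkeep, lies at chr11:48861968-48871683 on the minus strand. Isotype control tumors held 114, 102, 92.6, 61.8 and 61.9 CPM. The combination with anti-TGF-β gave 153, 158, 115, 105 and 149 CPM, that with anti-GARP:TGF-β1 WT 145, 118, 151, 128 and 109 CPM, and that with anti-GARP:TGF-β1 FcD 134, 127, 151, 104 and 145 CPM. In each combination 4 of 5 mice were above the highest isotype control and 1 was within its range. The log2 fold changes were 0.65 ± 0.30, 0.59 ± 0.30 and 0.61 ± 0.30 in that order, with adjusted p = 0.218, 0.25 and 0.297. Irgm2, the regulator next to Igtp (chr11:58199618-58222782, plus strand, sharing 162 exonic bases with it), had group means of 157 ± 41.2 CPM (SD) in the isotype control and 216 ± 36.1, 221 ± 37.4 and 220 ± 33.2 CPM in the same combinations. Its log2 fold changes of 0.47 to 0.50, the smallest of the 3 regulators, had adjusted p = 0.342 to 0.397.

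Iigp1, an effector that loads onto pathogen vacuoles, had 399.7, 419, 265, 221 and 222 CPM in the isotype control. Tumors of the WT combination had 544, 438, 588, 496 and 431 CPM, all above the highest isotype control. Values of 513, 387, 625, 418 and 572 CPM were found with the FcD combination and 639, 539, 299.5, 362 and 439 CPM with the TGF-β combination, and in both groups 3 of 5 mice exceeded the highest isotype control. The log2 fold changes were 0.71 ± 0.38, 0.72 ± 0.38 and 0.58 ± 0.38 (adjusted p = 0.276, 0.328 and 0.383). Iigp1 lies apart from the other members, which are all on chromosome 11, at chr18:60376027-60392634.

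Tgtp1 and Tgtp2 encode near-identical effectors (chr11:48985327-48994172 and chr11:49057194-49064206, minus strand). Of the 100-base windows of Tgtp1 transcripts, 70.3% occurred exactly in Tgtp2 transcripts, and 76.8% of those of Tgtp2 occurred in Tgtp1, so that the split of reads between them is uncertain. The counting mode is not given, so reads that match both may also be missing from both counts, which a sum would not restore. Tgtp1 was at 48.2 ± 13.3 CPM (SD) in the isotype control and at 73.4 ± 18.6, 75.0 ± 18.1 and 69.0 ± 11.8 CPM in the combinations of anti-PD-1 with anti-TGF-β, anti-GARP:TGF-β1 WT and anti-GARP:TGF-β1 FcD. Tgtp2 was at 3.78 ± 1.00 CPM in the isotype control and 4.75 ± 2.19, 5.67 ± 1.6 and 5.66 ± 1.07 CPM in those groups. With the counts of both genes summed, a choice made after seeing the data, the log2 fold changes against the isotype control were 0.59 ± 0.38, 0.63 ± 0.37 and 0.52 ± 0.38 (adjusted p = 0.368, 0.32 and 0.463).

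Ifi47, the remaining effector, had 0 to 6 counts per library, and 6 of the 40 libraries were at 0. The gene (chr11:49076587-49096974, plus strand) lies inside the span of Olfr56 (chr11:48978889-49135387, same strand), which is named as an olfactory receptor. In the annotation at hand 111 of its 2473 exonic bases are also exon of Olfr56. Olfr56 had 45 to 362 counts per library, and its log2 CPM correlated with the mean of the 6 tested members at r = 0.89 (Pearson) and 0.86 (Spearman) over the 40 mice. Its level ranged from 6.0 to 11.1 CPM in the isotype control and from 13.2 to 22.8 CPM in tumors of the WT combination, with a log2 fold change of 0.98 ± 0.35 that was not called (adjusted p = 0.159). With the FcD combination it ranged from 13.0 to 20.8 CPM (0.92 ± 0.35, adjusted p = 0.243). With the TGF-β combination it ranged from 10.1 to 21.5 CPM, overlapping the isotype control (0.60 ± 0.35, adjusted p = 0.324). Whether reads of Ifi47 were counted under Olfr56 was not tested, and Ifi47 enters no comparison here.

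**Figure D1:**
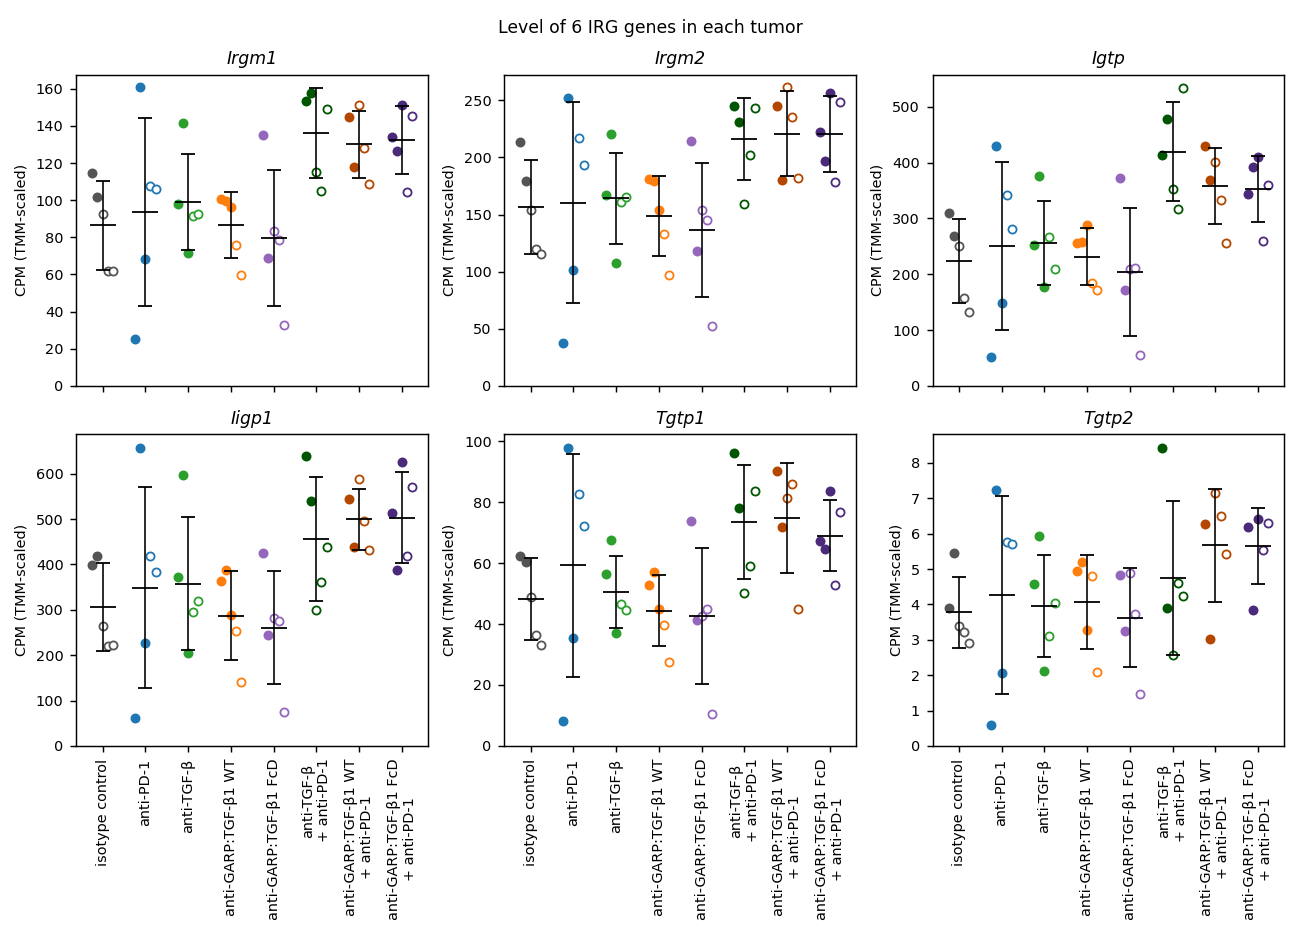
Level of the 6 tested IRG genes (y axis, TMM-scaled CPM from 0) in each of the 40 tumors, by treatment group (x axis). Filled points are libraries 41 to 60 and open points libraries 61 to 80. Bars show the mean ± SD of 5 mice. The 3 combination groups lie higher on average than the isotype control in all 6 genes, and the lowest points are library 47 of the anti-PD-1 group.

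No member was called in any of the 20 comparisons by edgeR's quasi-likelihood test or by DESeq2. By edgeR the share of all tested genes called was 0% in each of the 7 comparisons with the isotype control, so that the count by that test says nothing particular about the IRG genes. DESeq2 called 139 genes with the TGF-β combination, 14 with the FcD combination and at most 1 in the others. All 6 tested members had a log2 fold change above 0 with each of the 3 combinations, from 0.33 to 0.90 (medians 0.59 with anti-TGF-β, 0.61 with anti-GARP:TGF-β1 WT and 0.60 with anti-GARP:TGF-β1 FcD), while the median over all tested genes lay between -0.004 and 0.02. At an unadjusted p under 0.05 and higher than the isotype control were 2 members with the TGF-β combination (8.49% of all genes), 1 with the FcD combination (10.7% of all genes) and 0 with the WT combination (13.2% of all genes). Every combination mouse lay above every isotype control mouse for Igtp with anti-TGF-β (1.73% of all genes did so), for Iigp1 with anti-GARP:TGF-β1 WT (1.35%) and for no member with anti-GARP:TGF-β1 FcD (1.96%).

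With single mAbs no member was called against the isotype control. Log2 fold changes of the 6 members ran from 0.04 to 0.30 with anti-PD-1, from 0.06 to 0.23 with anti-TGF-β, from -0.12 to 0.11 with anti-GARP:TGF-β1 WT and from -0.23 to -0.06 with anti-GARP:TGF-β1 FcD, with adjusted p = 1 throughout. The direction of these values hung on single mice, since the median over the members went from 0.13 to -0.05 for anti-TGF-β without library 48, from -0.04 to 0.09 for anti-GARP:TGF-β1 WT without library 73 and from -0.16 to 0.08 for anti-GARP:TGF-β1 FcD without library 75. With a library index of gene length (length index, described below) as a covariate, the values for anti-GARP:TGF-β1 WT ran from -0.04 (Tgtp1) to 0.36 (Tgtp2). The 95% intervals, given here without that covariate, were wide. For Iigp1 they spanned -0.58 to 0.97 with anti-PD-1 and -0.86 to 0.68 with anti-GARP:TGF-β1 WT, so that the absence of a call does not show equal levels. Ordered by the mean log2 CPM of the 6 members, the groups ran from anti-GARP:TGF-β1 FcD (5.90 ± 0.86 SD) through anti-PD-1 (6.05 ± 1.25), anti-GARP:TGF-β1 WT (6.16 ± 0.40), the isotype control (6.18 ± 0.40) and anti-TGF-β (6.31 ± 0.42) to the TGF-β combination (6.77 ± 0.33), the FcD combination (6.80 ± 0.22) and the WT combination (6.81 ± 0.26). Each step between neighbors in that order was smaller than the SD of either group, except for the step from anti-TGF-β to the TGF-β combination. For anti-PD-1 the mean of the log2 levels thus lay below the isotype control while the fitted fold changes lay above 0, and their median of 0.17 went to 0.44 without library 47 and to -0.14 without library 52. The anti-PD-1 tumors spread most. Their Iigp1 levels were 61.8, 657, 226, 418 and 383 CPM, and those of Igtp 52.1, 429, 149, 341 and 281 CPM. For Iigp1, library 52 stood above every combination tumor and library 47 below every other tumor of the study. Anti-GARP:TGF-β1 FcD tumors held 425, 245, 282, 275 and 75.2 CPM of Iigp1, with library 75 far under the other 4. Levels were 373, 596, 206, 295 and 319 CPM with anti-TGF-β and 364.5, 387, 289, 252 and 141 CPM with anti-GARP:TGF-β1 WT, ranges that overlapped the isotype control.

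**Figure D2:**
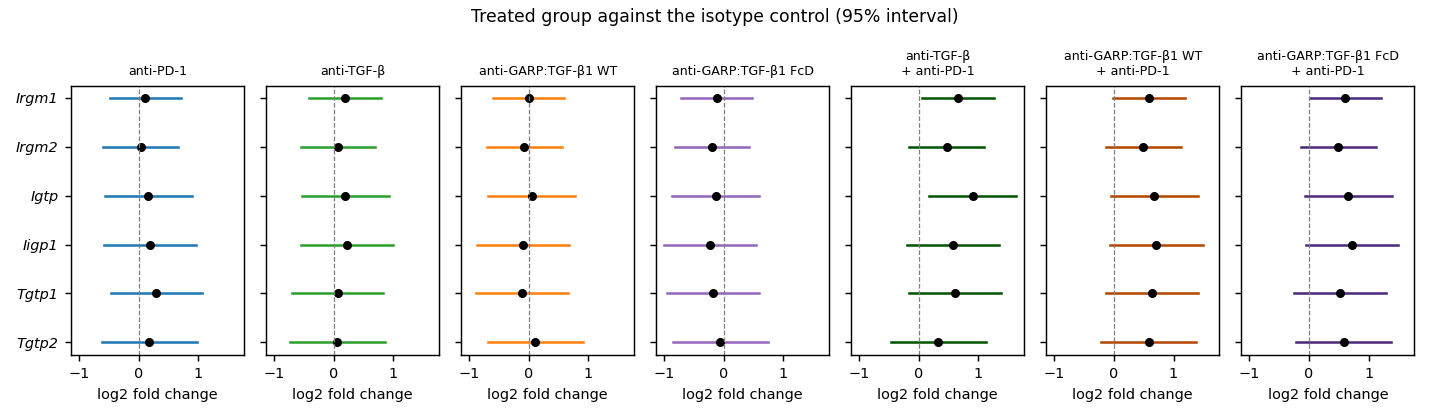
Log2 fold change against the isotype control (x axis) of the 6 tested IRG genes (y axis) for the 7 treated groups, 1 panel each. Points are edgeR estimates and lines 95% intervals. Intervals of the single mAbs span 0, and those of the combinations lie mostly above 0, with the lower bound above 0 for Irgm1 and Igtp with the TGF-β combination and for Irgm1 with the FcD combination.

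What anti-PD-1 adds to a partner mAb was asked by setting each combination against its partner alone. Addition to anti-GARP:TGF-β1 FcD gave the widest differences, with log2 fold changes of 0.64 to 0.95. Here 4 of the 6 members, Irgm1, Irgm2, Igtp and Iigp1, were higher at an unadjusted p under 0.05, against 13% of all genes, and none was called (adjusted p = 0.172 to 0.336). These 4 come from the same mice and vary together, as given below, so they are not 4 independent results. Iigp1 showed the largest, 0.95 ± 0.38 (unadjusted p = 0.0183), and all 5 combination mice exceeded the median of the FcD group. Without library 75, the lowest mouse of the FcD group, the median over the members went from 0.71 to 0.51. Addition to anti-GARP:TGF-β1 WT gave 0.47 to 0.80, with Iigp1 as the 1 member at an unadjusted p under 0.05 (16.6% of all genes were higher at that level) and adjusted p from 0.16 to 0.394. Every combination mouse exceeded every anti-GARP:TGF-β1 WT mouse for 2 members, Irgm1 and Iigp1 (2.74% of all genes). With the length index as a covariate the values ran from 0.01 (Tgtp2) to 0.66 (Igtp), with 0.54 for Iigp1, and no member had an unadjusted p under 0.05. Addition to anti-TGF-β gave 0.26 to 0.71 and no member at that level (3.96% of all genes). With the same covariate, these values were 0.54 to 0.69, with Tgtp2 going from 0.26 to 0.69 and Iigp1 from 0.35 to 0.64.

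What the partner adds to anti-PD-1 was asked by setting each combination against anti-PD-1, the group with both the highest and the lowest family mean of all 40 tumors. The medians over the 6 members were 0.47 with anti-GARP:TGF-β1 WT, 0.48 with anti-GARP:TGF-β1 FcD and 0.41 with anti-TGF-β. Unadjusted p under 0.05 was reached by 0, 0 and 1 members, respectively, against 11.2%, 6.46% and 7% of all genes. That 1 member was Igtp with anti-TGF-β (log2 fold change 0.74, adjusted p = 0.287), in a comparison in which 0.00678% of all genes were called. Without library 47 the medians went to 0.22, 0.21 and 0.15. Libraries 41 to 60 taken alone gave medians of 0.67, 0.71 and 0.89, whereas libraries 61 to 80 gave 0.15, 0.05 and -0.08, so that the differences from anti-PD-1 lay mostly in the former. With the length index as a covariate the 6 values for anti-TGF-β, 0.15 to 0.74 without it, were 0.50 to 0.76. The interaction of anti-PD-1 with each partner mAb, which asks whether a combination departs from the sum of its parts, was above 0 for all 6 members in the 3 contrasts, from 0.09 to 0.76, with adjusted p = 0.552 to 0.989. These values rested in part on library 47, without which the medians over the members went from 0.47 to 0.21 (WT), from 0.62 to 0.36 (FcD) and from 0.30 to 0.04 (TGF-β), and Iigp1 (-0.11) and Tgtp1 (-0.03) were below 0 in the TGF-β contrast. Tgtp2 in that contrast was -0.21 without library 53. Without library 52, in contrast, the interaction of Irgm1 went from 0.475 to 0.76 (WT), from 0.617 to 0.902 (FcD) and from 0.346 to 0.632 (TGF-β). With the length index as a covariate, that of Tgtp2 went from 0.30 to -0.11 with the WT combination and from 0.09 to 0.57 with the TGF-β combination, where that of Iigp1 went from 0.16 to 0.49. A test of any difference among the 8 groups called no member (adjusted p = 0.201 to 0.682, 0.0271% of all genes called).

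Differences among the 3 combinations were small beside their errors. Between the Fc-dead and Fc-active forms of anti-GARP:TGF-β1 with anti-PD-1, log2 differences of the members were -0.12 to 0.02. The TGF-β combination differed from the WT combination by -0.26 (Tgtp2) to 0.23 (Igtp) and from the FcD combination by -0.25 to 0.25, with adjusted p of 0.649 or more. With the length index as a covariate, the difference from the WT combination was 0.17 (Igtp) to 0.46 (Tgtp2), and its sign had turned for Irgm2, Iigp1, Tgtp1 and Tgtp2. In those comparisons 18.2% and 6.46% of all tested genes were called, and no IRG member was. The 95% interval for Iigp1 between the TGF-β combination and the WT combination ran from -0.90 to 0.64, so that similarity is not shown by the test.

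Within the library parts the values diverged. Anti-PD-1 alone gave log2 fold changes of -0.59 to -0.35 in libraries 41 to 60 and 0.57 to 0.97 in libraries 61 to 80. Anti-TGF-β alone turned likewise, from -0.25 to -0.06 in the former and 0.17 to 0.40 in the latter. For anti-PD-1 the difference between parts had an unadjusted p of 0.0573 at the smallest and an adjusted p of 1. When set against the isotype control, each combination had a median above 0 in both parts, with values over the members of 0.27 and 0.86 for anti-GARP:TGF-β1 WT, 0.27 and 0.79 for anti-GARP:TGF-β1 FcD, and 0.52 and 0.67 for anti-TGF-β, each in libraries 41 to 60 and then 61 to 80. Of these single values only Tgtp2 with the WT combination in libraries 41 to 60 was below 0 (-0.01). Against anti-PD-1 the order of the parts was the opposite, as given above, with a median below 0 for the TGF-β combination in libraries 61 to 80. Against the partner mAb the medians were above 0 in both parts, from 0.36 (TGF-β combination, libraries 61 to 80) to 0.96 (FcD combination, libraries 61 to 80). The median difference of the TGF-β from the WT combination was 0.21 in libraries 41 to 60 and -0.15 in libraries 61 to 80. For a difference between parts the adjusted p of the members was 0.352 at the smallest over the 16 comparisons of 2 groups, and 0 of all tested genes were called for it.

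**Figure D3:**
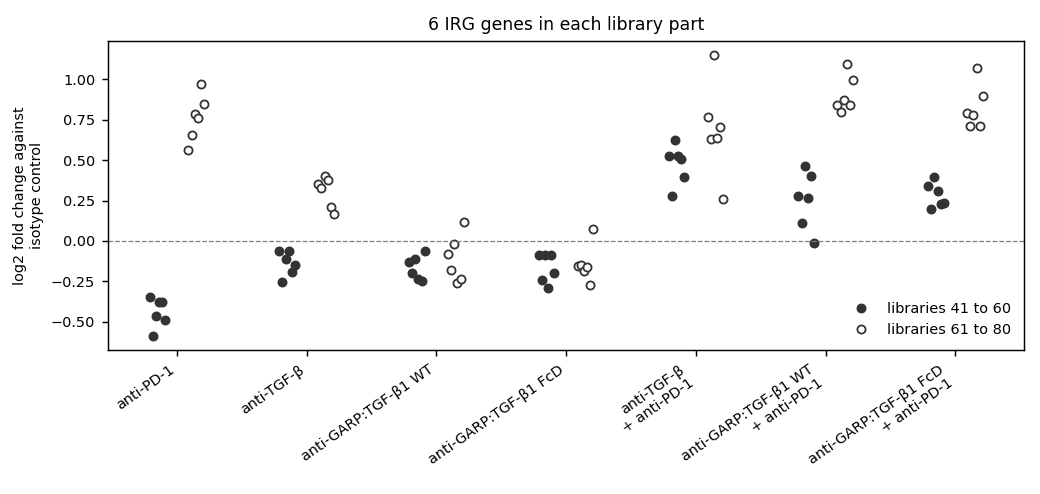
Log2 fold change against the isotype control (y axis) of the 6 tested IRG genes in 7 treated groups (x axis), within libraries 41 to 60 (filled) and 61 to 80 (open). Each point is 1 gene, and the 6 points of a column come from the same 2 or 3 mice a group. The open points lie above the filled ones for anti-PD-1, anti-TGF-β and the combinations with anti-GARP:TGF-β1.

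Levels of the members varied together from mouse to mouse. Over the 40 mice the 15 pairs among the 6 tested members had Pearson correlations of log2 CPM from 0.779 to 0.98 (median 0.958) and Spearman correlations from 0.631 to 0.962. After the group means were subtracted the median Pearson correlation was 0.959, so that the shared variation lay within groups and not only between them. The ranges were 0.863 to 0.99 in libraries 41 to 60 and 0.699 to 0.982 in libraries 61 to 80. All values of a mouse share 1 library and its depth, and Tgtp1 and Tgtp2 also share sequence. The lowest pair was Igtp and Tgtp2.

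Genes most like the family were mostly guanylate-binding proteins (GBPs), large interferon-induced GTPases that act beside IRG proteins at pathogen vacuoles. Of 14754 other genes, the 10 with the highest Pearson correlation with the mean log2 CPM of the 6 members were Gbp4 (0.989), Gbp2 (0.989), Gbp3 (0.982), Gbp2b (0.975), the clone-named gene RP24-499A8.3 (0.973), Gbp6 (0.972), Serpina3f (0.968), the clone-named gene RP23-14F5.7 (0.96), Gm4841 (0.953) and Gbp5 (0.95). With the 2 farthest mice left out, these correlations were 0.893 to 0.976. Member by member, the closest gene was Gbp3 for Irgm1 and Igtp, Gbp2 for Irgm2 and Tgtp1, Gbp4 for Iigp1 and Gbp7 for Tgtp2. Irf1, which binds ISRE sequences, ranked 11 (0.943), and Ifng, the gene of interferon-γ, ranked 49 (0.877) in spite of a level of only 0.15 to 5.67 CPM.

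**Figure D4:**
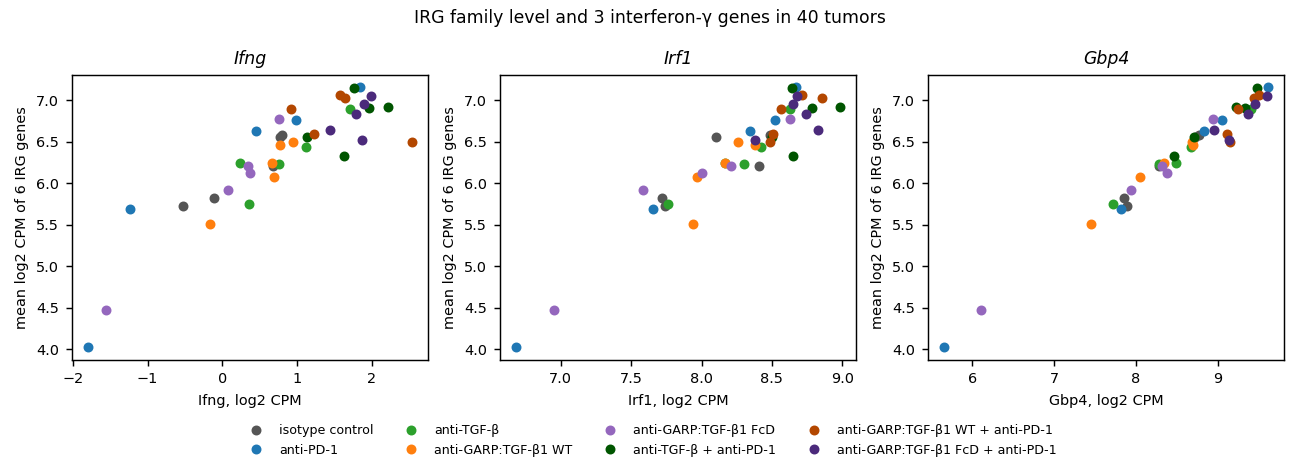
Mean log2 CPM of the 6 tested IRG genes (y axis) against log2 CPM of Ifng, Irf1 and Gbp4 (x axes) in 40 tumors, colored by group. The family mean is higher where each of these genes is higher, most tightly for Gbp4 (Pearson 0.989), and the pair of points at the lower left is libraries 47 and 75.

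Interferon-γ signaling genes had log2 fold changes above 0 for 11 of 13 genes with the TGF-β combination and for all 13 with each of the others. For Ifng itself they were 1.46 ± 0.48 (SE), 1.36 ± 0.47 and 1.48 ± 0.48 in the TGF-β, WT and FcD combinations, respectively (adjusted p = 0.141, 0.159 and 0.225). Socs1, a feedback inhibitor of this pathway, had 0.82, 0.56 and 0.75 in that order (adjusted p = 0.106, 0.159 and 0.225). Of the 13 genes listed for the pathway none was called in these 3 comparisons, and 7, 8 and 6 were higher at an unadjusted p under 0.05, with medians of 0.35, 0.45 and 0.40. Of all tested genes 8.49%, 13.2% and 10.7% were higher at that level in the same order. Of the 11 GBP genes none was called and 3, 8 and 9 were higher at that level, with medians of 0.69, 0.72 and 0.82. For 22 type I interferon genes, 19 of them tested, the counts were 11, 10 and 0. The medians of that list were 0.43, 0.35 and 0.26. These comparisons share the isotype control mice.

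The machinery that guides IRG proteins to membranes showed small differences. Of 10 genes of autophagy conjugation, which directs effector IRG proteins to their targets, none was called against the isotype control in any combination, and the medians were 0.05 to 0.09. Of 4 genes for ubiquitin ligases and adaptors at IRG-coated vacuoles, none was called against the isotype control and the medians were -0.12 to 0.18. Between the TGF-β combination and the WT combination, 2 of these 4, Traf6 and Tax1bp1, were called and lower with anti-TGF-β, in a comparison in which 18.2% of all tested genes were called and 0 with the length index as a covariate.

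Other IRG-like genes behaved less uniformly. Of 10 listed, 6 had a row and 5 were tested, while Gm12250, Gm4951, Gm5431 and Gm12185 were not analysed here. Gm4841 followed the family (0.953), F830016B08Rik did so less (0.734), and 9930111J21Rik1 (0.3), 9930111J21Rik2 (0.286) and Irgq (0.128), a divergent member not known to respond to interferon, did so least. Log2 differences between the TGF-β combination and the WT combination were -1.58 ± 0.65 for 9930111J21Rik1, -1.44 ± 0.55 for 9930111J21Rik2 and -1.31 ± 0.53 for F830016B08Rik, with adjusted p = 0.0793, 0.0601 and 0.0748. The further homolog Irgc1 was at 0 in 37 of 40 libraries.

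The ratio of Tgtp2 to Igtp, the pair with the lowest correlation, moved with a property of the libraries. For each library a length index was computed, after the data had been seen, as the mean log2 level of genes in the upper quartile of exonic length (from 6791 bases) minus that of genes in the lower quartile (up to 2750 bases), each gene centred on its mean. Lengths were known for 86.4% of tested genes, and 41.7% of all tested genes correlated with the index at an absolute r above 0.5. The log2 ratio of Tgtp2 to Igtp ran from -7.02 to -5.11 and correlated with the index at r = 0.801 (Pearson, 0.709 Spearman, 0.725 without the 2 farthest mice, 0.76 and 0.854 within the library parts). Single members correlated with the index at -0.094 (Igtp), 0.053 (Irgm1), 0.12 (Tgtp1), 0.157 (Irgm2), 0.249 (Iigp1) and 0.451 (Tgtp2). Their exonic lengths in the same order were 2022, 5810, 3205, 3690, 5823 and 2938 bases, so that the correlations did not follow the members' own lengths. The family mean did not follow it closely (0.162), and 9930111J21Rik1 (0.944) and 9930111J21Rik2 (0.959) did.

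Tumors of the TGF-β combination had the lowest index, -0.59 to 0.18 with a median of -0.35, against a median of 0.14 in the isotype control and 0.23 and 0.20 in the combinations with anti-GARP:TGF-β1 WT and FcD. In this group Igtp had the largest and Tgtp2 the smallest fold change of the family against the isotype control (0.90 and 0.33), and without library 53 the value for Tgtp2 was 0.03. With the index as a covariate they were 0.86 and 0.83, and the 6 members ranged from 0.65 to 0.92, with adjusted p = 0.281 to 0.335. For Tgtp2 in the WT combination the covariate moved the value from 0.58 to 0.37 against the isotype control and from 0.47 to 0.01 against its partner. The same covariate took the count of all genes called between the TGF-β combination and the WT combination from 2684 to 0. Whether the index reflects RNA quality or tissue make-up was not tested.

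**Figure D5:**
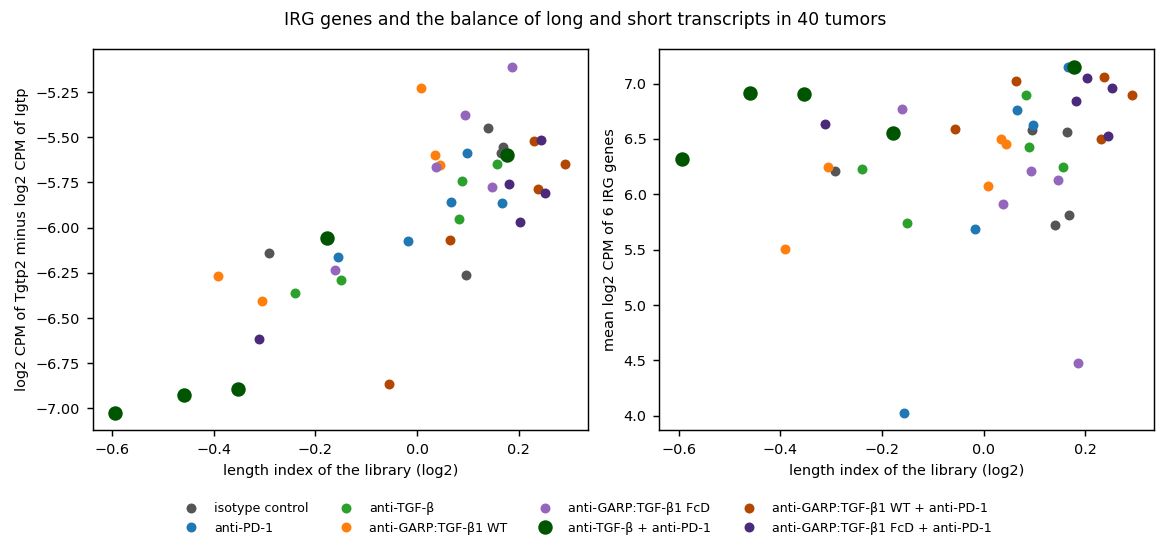
Log2 ratio of Tgtp2 to Igtp (left) and mean log2 CPM of the 6 tested IRG genes (right) against the length index of the library (x axes, log2) in 40 tumors, colored by group, with the TGF-β combination in large points. The ratio climbs with the index (Pearson 0.801), and the family mean does not (0.162). Of the 5 large points, 3 have the lowest ratios among all tumors.

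Markers of cell types moved with the family to different degrees, given here as descriptions. Summed CPM of 8 macrophage markers had a median of 1895 in the isotype control (1564 to 2329), 2653 with the TGF-β combination (2277 to 2863), 2004 with the WT combination (1709 to 7704) and 2794.5 with the FcD combination (2114 to 3319). T cell markers had medians of 54.9 CPM in the isotype control and 41.3, 45.4 and 55.0 CPM in the TGF-β, WT and FcD combinations. NK cell markers had 11.2 against 17.5, 12.65 and 16.6 CPM and the leukocyte marker Ptprc 128 against 139, 169.8 and 274.5 CPM in that order. Neutrophil markers had 55.5 against 96.8, 85.9 and 106 CPM and adipocyte markers 20.55 against 53.7, 90.4 and 198 CPM in that order. Over the 40 mice log2 of the macrophage sum plus 1 correlated with the family mean at 0.555 (Pearson). Values were 0.639 for NK cell markers, 0.632 for the leukocyte marker Ptprc, 0.537 for T cell markers, 0.473 for dendritic cell markers, 0.32 for adipocyte markers, 0.215 for neutrophil markers and -0.083 for fibroblast markers. After the group means were subtracted they were 0.386 (macrophage), 0.491 (NK cell), 0.543 (Ptprc), 0.518 (T cell), 0.316 (dendritic cell), 0.127 (adipocyte), -0.057 (neutrophil) and -0.1 (fibroblast). All 8 macrophage and all 7 T cell markers were above 0 in all 40 libraries. Of the 5 NK cell markers, Klra4 was at 0 in 30 libraries and Klra8 in 38. The 5 epithelial markers listed for carcinoma cells (Krt8, Krt18, Krt19, Epcam and Cdh1) summed to group medians of 9.66 to 27.5 CPM, with Epcam at 0 in 7 libraries and Krt8 in 3, and the highest sums were 500.1 CPM with the FcD, 235 with the WT and 91.6 with the TGF-β combination. Whether these markers label CT26 cells was not tested, so their sums are not read as the amount of carcinoma cells. The part of carcinoma cells in the IRG values was not tested either.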

How the data were processed

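Tumor fragments of 40 CT26-bearing mice were sequenced with stranded, poly(A)-selected paired reads. The submitters' processing notes name STAR 2.5.3a, SAMtools 1.6 and HTSeq 0.9.1 with GRCm38, and the authors deposited raw counts per gene symbol. The annotation version and the counting mode are not given in the sources used here. From these counts, genes were filtered with filterByExpr, scaled by TMM and fitted with a robust quasi-likelihood model of 8 group means (edgeR 4.0.16, R 4.3.3, Benjamini-Hochberg over 14760 genes). Log2 CPM used a prior count of 2. On simulated counts for these 14760 genes the model recovered 143 of 200 genes changed by a log2 fold change of 1 and 91 of 200 at 0.6. The 200 genes were drawn at random and each gene was simulated independently. These rates therefore do not give the recovery to be expected for the IRG members, which vary together. The 80 pairs of libraries of a group all differed by more than counting noise. Nothing in the labels says whether mice of a group were housed or processed apart. Positions are from GENCODE vM21 and start regions from RefSeq. Alternatives were DESeq2 1.42.0, other scaling, no filter, a covariate, no robust step, only the compared groups and each mouse left out. Named genes were the 7 members, the interferon-γ, GBP and IRG-like lists, the 2 smallest p of other lists and the 10 genes most correlated with the family. Members and lists were chosen with earlier results of these data known.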

Additional observations from a re-analysis of the deposited data

Results flagged for a closer look

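Among 56 sets of 5 values (7 members in 8 groups), 1 held a mouse far from the others. Ifi47 in isotype control library 51 was at 0.374 CPM, with the next isotype control at 0.157 CPM and the lowest at 0.069 CPM, a gap of 0.711 of the range against a critical value of 0.71. Chance gives about 1 such set in 20. These values rest on 1 to 5 counts per library. No IRG member differed between library parts or showed an interaction at an adjusted p under 0.05.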

How the results depend on the processing

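No IRG gene was called under any alternative, and the smallest adjusted p of a member was 0.08 (only the compared groups, edgeR). Fold changes of single members turned sign in 5 cases with 1 mouse left out, over the 9 comparisons of a combination with the isotype control, anti-PD-1 or its partner. With the length index as a covariate the sign turned elsewhere: against the WT combination, the TGF-β combination had 0.46 (Tgtp2), 0.31 (Iigp1), 0.22 (Irgm2) and 0.20 (Tgtp1), and against the FcD combination 0.38, 0.27 and 0.20 (Tgtp2, Iigp1 and Irgm2). It also turned for the WT interaction of Tgtp2 (-0.11) and for values under 0.1 in size in both fits. Without single mice, Tgtp1 in the FcD combination against anti-PD-1 (0.22) ranged from -0.069 (without library 47) to 0.476. Tgtp2 in the TGF-β combination ranged from -0.15 (without library 53) to 0.43 (without library 52) against anti-PD-1 (0.15) and from -0.031 (without library 53) to 0.459 against anti-TGF-β (0.26). Against the isotype control, the median over the members ranged from 0.51 to 0.74 for the WT combination, from 0.50 to 0.70 for the FcD combination and from 0.47 to 0.71 for the TGF-β combination. The median for anti-PD-1 alone ranged from -0.14 (without library 52) to 0.44 (without library 47), that for anti-TGF-β alone from -0.05 (without library 48) to 0.26 (without library 46), that for anti-GARP:TGF-β1 WT alone from -0.13 (without library 78) to 0.09 (without library 73), and that for anti-GARP:TGF-β1 FcD alone from -0.45 (without library 41) to 0.08 (without library 75). With library 52 left out the medians of the combinations against anti-PD-1 were 0.72 (WT), 0.73 (FcD) and 0.70 (TGF-β).

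Counts of all genes called, the background of these results, moved far more, and the cause was not tested. DESeq2 called 1 gene against the isotype control for anti-GARP:TGF-β1 WT, anti-TGF-β and anti-PD-1 each, 14 for the FcD and 139 for the TGF-β combination. It called 78 for the TGF-β combination against anti-PD-1, 332 for the WT, 174 for the FcD and 1 for the TGF-β combination against its partner, 1980 between the TGF-β and FcD combinations, 1 and 2 for the interactions of the WT and TGF-β combinations, and 1256 among the 8 groups. The library part as a covariate gave 17 genes for the FcD combination against the isotype control, 4 against its partner and 35 among the 8 groups. A fit of only the compared groups gave 177 (FcD) and 8 (TGF-β combination) against the isotype control, 476 for the FcD combination against its partner, and 0 for the TGF-β combination against anti-PD-1 and against the WT and FcD combinations. Without the filter on low counts the TGF-β combination had 848 genes against the WT and 0 against the FcD combination, with 9 among the 8 groups. The length index, chosen after seeing the data, gave 0 in all 3 of those comparisons of the TGF-β combination.

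With 1 mouse left out, the counts ranged from 0 to 2006 (TGF-β combination against the isotype control), 0 to 538 (WT combination against anti-PD-1, highest without library 52), 0 to 1734 (TGF-β combination against anti-PD-1), 0 to 1707 (WT combination against its partner, highest without library 55), 0 to 719 (FcD combination against its partner, highest without library 50), 0 to 5309 (TGF-β against WT combination, lowest without library 69), 0 to 4612 (TGF-β against FcD combination, lowest without library 44), 0 to 1 (interaction with anti-TGF-β) and 0 to 2288 (8 groups). The highest counts that involve the TGF-β combination, and that among the 8 groups, came without library 53. No paired analysis was possible because replicate numbers were given in accession order and pair no mice. Counts were lowest for Ifi47, with at most 6 per library, and Tgtp2, with 8 at the lowest.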
